A study of Homo sapiens with 18 samples.

Results

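Polyamine metabolism was examined in U87MG glioblastoma cells through 10 genes, which were matched by symbol among the 58302 genes of the deposited count table: ODC1, AMD1, SRM and SMS for synthesis, SAT1, SAT2 and SMOX for breakdown, OAZ1 and OAZ2 for the antizymes, and AZIN1 for the antizyme inhibitor. The rule that names them uses their known roles and no value of these libraries, but they were chosen with earlier results of these data known. All 10 passed the filter on low counts. RNA-seq was performed in 2 libraries of control cells, labelled as grown under normal conditions, and 2 libraries of cells treated with Erastin (10 μM, 72 h), which blocks cystine import by system Xc- and lowers glutathione. The libraries of each group are described as biological replicates. The titles of the control libraries carry the tag WT, which the Erastin titles lack. U87MG is 1 established human glioblastoma line, and the labels of these libraries name no engineered allele, so the comparison describes this line only. Whether the control cultures of these libraries received the solvent was not stated.

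Polyamines are small positively charged molecules that bind nucleic acids and are needed for growth. Ornithine decarboxylase (ODC1) makes putrescine from ornithine, and spermidine synthase (SRM) and spermine synthase (SMS) extend it with aminopropyl groups that come from S-adenosylmethionine after its decarboxylation by AMD1. SAT1 acetylates spermidine and spermine, which marks them for oxidation or export, and SMOX oxidizes spermine directly and releases hydrogen peroxide. Antizymes bind ODC1 and deliver it to the proteasome, and the antizyme inhibitor AZIN1, a relative of ODC1 without its activity, takes antizyme away. SAT1 is a known target of p53 and has been tied to ferroptosis through lipoxygenases.

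The libraries held between 29412656 and 31513519 counts on genes, with 23519 to 23990 genes detected. Expression is given as CPM, read counts relative to the library size that edgeR's TMM method estimated, and edgeR's quasi-likelihood test compared the groups over 16751 genes with p-values adjusted by the Benjamini-Hochberg method. Genes were called upregulated or downregulated where the log2 fold change reached 1 in size and the adjusted p was under 0.05. Among 9 markers of glial cells and glioma lines, VIM and CD44 were abundant and GFAP had 41 to 81 counts in each library. AQP4 had 0 counts, S100B had 0 to 2, SOX2 had 0 to 6 and OLIG2 had 59 to 88. The astrocyte transporter SLC1A3 had 1741 and 1725 reads without Erastin, against 307 and 326 with it, and NES had 1277 and 972, against 105 and 77. SLC1A3 fell by 2.45 and NES fell by 3.62 on the log2 scale, and both were called downregulated, whereas GFAP stood at 0.79 (adjusted p = 0.0696 from edgeR). The 8 markers of immune, endothelial, neuronal and epithelial cells summed to between 22.7 and 25.4 CPM in control cells and between 11.6 and 12.04 CPM in Erastin-treated cells, of which SYT1 gave most. The 2 endothelial markers moved apart, as PECAM1 was called downregulated at −2.34 and VWF upregulated at 2.58 on the log2 scale. VWF had few reads, 4 and 4 without Erastin, against 17 and 32 with it. The 9 glial and glioma markers summed to between 3979 and 4054 CPM in control cells and between 2682 and 2872 CPM after Erastin. VIM and CD44 gave most of this sum. They fell by 0.60 and 0.36 on the log2 scale (adjusted p = 1.27e-05 and 6.44e-04 from edgeR). The part of these markers in the results was not tested. In bulk RNA, fewer cells that express a gene and less RNA of it per cell cannot be told apart.

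In the comparison of Erastin-treated with control cells, SAT1 rose and was the only member past both thresholds, with a mean level 2.23 times that of control cells. ODC1, which makes the first polyamine, also rose, by a smaller amount. SMS fell by 35.1%, SMOX fell by 38.2% and OAZ2 fell by 44.4%, and the falls of SAT2 and AMD1 were smaller. SRM, AZIN1 and OAZ1 did not pass the test. Thus 1 of 10 members was called upregulated, where 6.24% of all tested genes were. With edgeR 0 members were called downregulated, against 9.34% of tested genes, although 6 members were lower at an unadjusted p under 0.05, and DESeq2 also called 0. Without the threshold on the fold change, 7 of 10 members had an adjusted p under 0.05, 2 of them higher and 5 lower, where 47.0% of tested genes did, 23.2% higher and 23.7% lower. The 2 Erastin libraries did not overlap the 2 control libraries for 9 of 10 members, against 73.6% of tested genes. Of these, 3 members were higher and 6 lower under Erastin, where 36.7% and 36.9% of tested genes were. The median log2 fold change was −0.18 over the members and −0.00259 over all tested genes. In this line the treatment changed a large share of all genes, and the members' counts lie near that background.

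**Figure D1:**
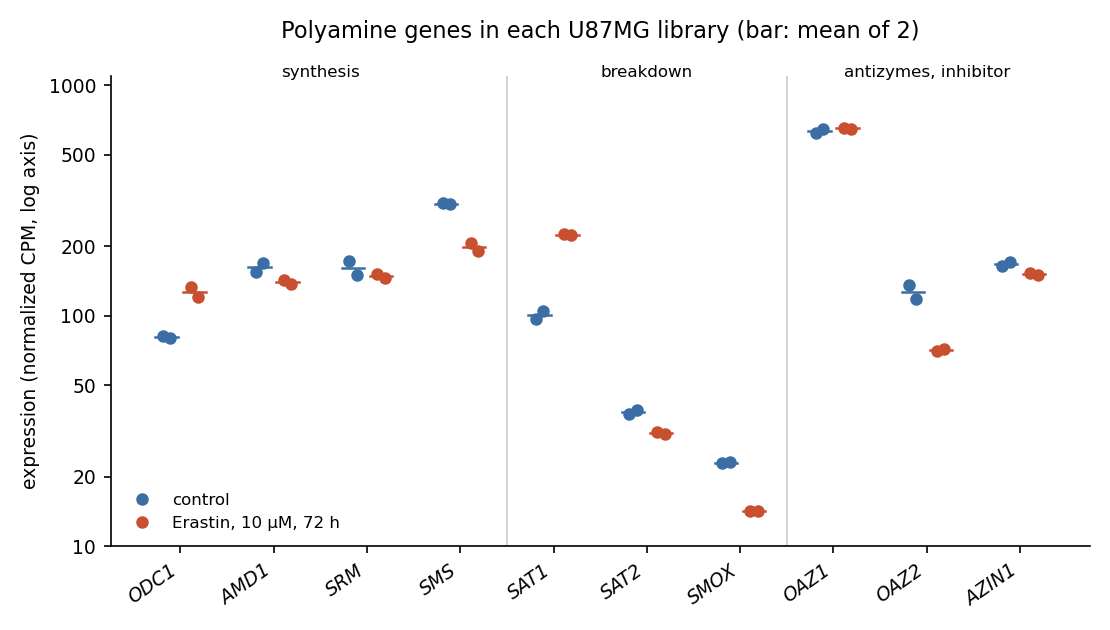
Normalized expression (CPM, log axis) of the 10 polyamine genes in each of the 4 libraries, with 2 points per group and a bar at their mean. SAT1 and ODC1 lie higher in the Erastin libraries, whereas SMS, SMOX and OAZ2 lie lower, and OAZ1 stays between 624 and 653 CPM.

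SAT1 (ENSG00000130066), spermidine/spermine N1-acetyltransferase 1, lies on the plus strand of chromosome X from 23783173 to 23786226 (GRCh38, as for all positions given). It had 2969 and 3253 reads without Erastin, against 6762 and 7010 with it. Each Erastin library held more than 2 times the counts of each control library. Mean expression under Erastin was 225 ± 2.099 CPM (SD, n = 2), compared to 101 ± 5.39 CPM (SD, n = 2) in the controls. On the log2 scale, edgeR's quasi-likelihood test put the rise at 1.15 (adjusted p = 1.01e-07, standard error 0.0694). A larger rise was found for 6.96% of the tested genes. Fits that omitted any 1 library gave 1.10 to 1.202. When edgeR's glmTreat tested whether the change exceeded the threshold of 1 itself, the adjusted p was 0.0766, so a change of this size was not separated from 1. None of the 31-base words of its exons recurred elsewhere in the genome and no annotated gene overlapped it. The counts are of the whole gene and do not separate the coding transcript from the form with an extra exon that is degraded.

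The 250 bases before the RefSeq start sites (build GRCh38.p14) are shown for the breakdown genes SAT1 and SAT2, which changed in opposite directions, and for ODC1, the other member that rose. Capitals mark the 1 motif found in these windows, the antioxidant response core TGACNNNGC on the reverse strand, at position −102 from the SAT2 start.
SAT1, chrX:23782923-23783172, plus strand: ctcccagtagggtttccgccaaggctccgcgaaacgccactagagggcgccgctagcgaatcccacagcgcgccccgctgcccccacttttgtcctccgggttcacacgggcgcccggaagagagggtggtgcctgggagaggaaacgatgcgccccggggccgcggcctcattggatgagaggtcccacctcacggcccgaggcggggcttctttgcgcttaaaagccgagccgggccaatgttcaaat
SAT2, chr17:7627877-7628126, minus strand: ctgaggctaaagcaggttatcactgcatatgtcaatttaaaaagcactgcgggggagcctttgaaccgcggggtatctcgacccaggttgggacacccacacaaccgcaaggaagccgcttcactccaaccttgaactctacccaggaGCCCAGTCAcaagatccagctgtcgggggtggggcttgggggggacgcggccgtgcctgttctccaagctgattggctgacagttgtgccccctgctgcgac
ODC1, chr2:10448328-10448577, minus strand: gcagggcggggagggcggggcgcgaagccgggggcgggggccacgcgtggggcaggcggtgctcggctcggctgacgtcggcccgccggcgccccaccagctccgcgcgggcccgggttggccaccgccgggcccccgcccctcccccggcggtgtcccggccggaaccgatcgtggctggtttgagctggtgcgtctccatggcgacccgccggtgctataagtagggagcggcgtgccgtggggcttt
Windows of this length were read for 8 members, with the start nearest the deposited gene start where several were listed, and none was used for SMOX or AZIN1. The starts used for ODC1, AMD1, SRM and SMS lie inside the deposited genes, and so does a part of each of these windows. Both strands were searched for the E-box CACGTG, the antioxidant response core TGACNNNGC, the C/EBP-ATF core TGATGNAA and the paired p53 consensus with up to 13 bases between its parts, which are held by 6.34%, 10.9%, 3.14% and 0.0256% of the 35116 windows in the table. No window of a member held more than 1 match. Beside the SAT2 match, SRM held 1 E-box, at position −199 from its start. A match is a description of letters, and the lack of one says only that these letters are not in the window. The SAT1 window held 66.4% G and C and the ODC1 window 78.8%, where the median of all windows was 58.0%.

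SAT2 (ENSG00000141504), a relative of SAT1 whose main substrate is not the polyamines, lies on chromosome 17 from 7626234 to 7627876. It had 1148 and 1216 reads without Erastin, against 937 and 966 with it. Both Erastin libraries were lower, and expression fell to 31.04 ± 0.412 CPM (SD, n = 2), compared to 38.3 ± 1.13 CPM (SD, n = 2) in the controls. The fold change in log2 was −0.31 (adjusted p = 0.0197 from edgeR, standard error 0.0949), close to the limit of the test. Without control replicate 2, Erastin replicate 1 or Erastin replicate 2 the log2 fold change was −0.28, −0.32 and −0.29 and edgeR's adjusted p was 0.0673, 0.0771 and 0.0987, so the test was no longer passed. SHBG overlaps SAT2 on the opposite strand without shared exon bases, and it had 6 to 30 counts.

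SMOX (ENSG00000088826), spermine oxidase, lies on chromosome 20 from 4120980 to 4187747. It had 700 and 718 reads without Erastin, against 425 and 447 with it. The replicates lay close together in both groups, at 23.0 ± 0.156 CPM (SD, n = 2) without Erastin and 14.2 ± 0.0124 CPM (SD, n = 2) with it. This was a fall of 0.69 on the log2 scale (adjusted p = 4.26e-04 from edgeR, standard error 0.117), and with each library left out the log2 fold change stayed between −0.70 and −0.69. The 3 genes listed for breakdown therefore did not move together, with SAT1 higher and the other 2 lower. The small fall of SAT2 rests on the libraries used.

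Of the synthesis genes, ODC1 (ENSG00000115758), on chromosome 2 from 10439968 to 10448504, had 2490 and 2488 reads without Erastin, against 3976 and 3798 with it. The Erastin libraries lay well above the controls. Expression rose to 127 ± 8.52 CPM (SD, n = 2), compared to 80.8 ± 0.950 CPM (SD, n = 2) in the controls, which was a log2 difference of 0.65 (adjusted p = 1.86e-05 from edgeR, standard error 0.0733). It stayed between 0.58 and 0.72 with each library left out. A larger rise was found for 15.1% of the tested genes.

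SMS (ENSG00000102172), on chromosome X from 21940573 to 21994835, which makes spermine from spermidine, had 9389 and 9505 reads without Erastin, against 6192 and 5996 with it. The groups were well separated, at 307 ± 0.769 CPM (SD, n = 2) without Erastin and 199 ± 11.4 CPM (SD, n = 2) with it. In log2 terms the change was −0.62 (adjusted p = 1.37e-05 from edgeR, standard error 0.0675), between −0.69 and −0.57 with each library left out. Of the 31-base words of its exons, 51.4% recur elsewhere in the genome, and multi-mapped reads were left out of the counts, so the level of SMS is uncertain.

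AMD1 (ENSG00000123505), on chromosome 6 from 110874770 to 110895713, which supplies the aminopropyl donor for SRM and SMS, had 4743 and 5254 reads without Erastin, against 4269 and 4326 with it. Expression fell to 140.2 ± 3.57 CPM (SD, n = 2), compared to 162 ± 9.91 CPM (SD, n = 2) in the controls, a log2 difference of −0.21 (adjusted p = 0.0291 from edgeR, standard error 0.0707). With library totals in place of TMM, edgeR gave −0.16 and an adjusted p of 0.0917. Without control replicate 2, Erastin replicate 1 or Erastin replicate 2, the log2 fold change was −0.15, −0.24 and −0.18 and edgeR's adjusted p was 0.101, 0.0941 and 0.201, so this small fall rests on these choices. Of its 31-base words, 21.5% recur elsewhere in the genome. SRM (ENSG00000116649), on chromosome 1 from 11054584 to 11060024, which makes spermidine from putrescine, had 5288 and 4673 reads without Erastin, against 4531 and 4569 with it. Expression was 162 ± 15.9 CPM (SD, n = 2) without Erastin and 148 ± 4.29 CPM (SD, n = 2) with it. The control libraries differed from each other by more than the group means did, and the log2 fold change was −0.12 (adjusted p = 0.221 from edgeR, standard error 0.0781). Without control replicate 2 it was −0.23 with an adjusted p of 0.00895 from edgeR. Each of the 4 synthesis genes was expressed in each library, and they split into 1 that rose, 2 that fell and SRM.

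**Figure D2:**
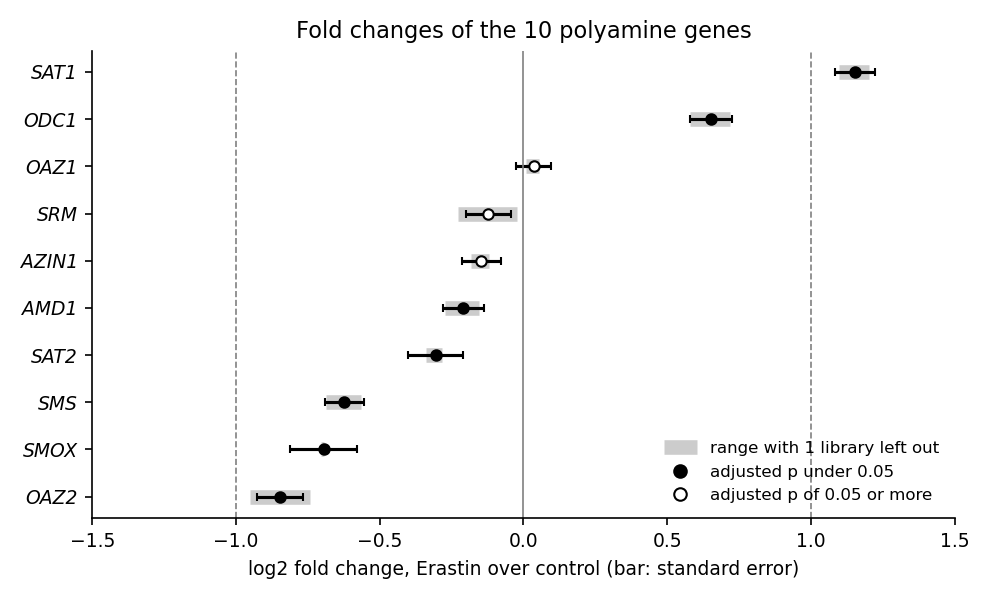
Log2 fold changes of the 10 polyamine genes, Erastin over control, with standard errors, dashed lines at −1 and 1, and grey bands for the range with 1 library left out. SAT1 lies at 1.15, ODC1 at 0.65 and OAZ2 at −0.85, and the open points of OAZ1, SRM and AZIN1 did not pass the test.

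OAZ1 (ENSG00000104904), on chromosome 19 from 2269509 to 2273490, encodes antizyme 1, whose full protein is made only when ribosomes shift reading frame at high polyamine levels, a step that counts of RNA do not show. It had 19078 and 20075 reads without Erastin, against 19539 and 20369 with it. These were 635 ± 15.8 CPM (SD, n = 2) without Erastin and 651 ± 3.51 CPM (SD, n = 2) with it, a change in log2 of 0.04 (adjusted p = 0.677 from edgeR, standard error 0.0616). It lay between 0.01 and 0.05 with each library left out. JSRP1, on the opposite strand, shares 6.87% of the exon bases of OAZ1 and had 0 to 5 counts. A gene without a symbol on the same strand shares 6.40% and had 0 counts.

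OAZ2 (ENSG00000180304), on chromosome 15 from 64687573 to 64703281, encodes a second antizyme made by the same frame shift. It had 4164 and 3671 reads without Erastin, against 2096 and 2244 with it. Expression fell to 70.7 ± 0.950 CPM (SD, n = 2), compared to 127 ± 12.7 CPM (SD, n = 2) in the controls, the largest fall among the 10 members. In log2 terms the change was −0.85 (adjusted p = 4.89e-06 from edgeR, standard error 0.0809), between −0.95 and −0.74 with each library left out. A larger fall was found for 14.6% of the tested genes. Of its 31-base words, 14.2% recur elsewhere in the genome. A noncoding gene on the opposite strand shares 7.22% of its exon bases and had 0 counts.

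AZIN1 (ENSG00000155096), on chromosome 8 from 102826357 to 102893864, had 5006 and 5337 reads without Erastin, against 4596 and 4700 with it. Expression was 168 ± 5.72 CPM (SD, n = 2) without Erastin and 152 ± 2.88 CPM (SD, n = 2) with it. In log2 terms the change was −0.15 (adjusted p = 0.0940 from edgeR, standard error 0.0667), and without control replicate 1 it was −0.18 with an adjusted p of 0.0443 from edgeR. MAILR, on the opposite strand, shares 5.04% of the exon bases of AZIN1 and had 16 to 45 counts. Of the genes that control ODC1 protein, then, OAZ2 passed the test, and OAZ1 and AZIN1 did not.

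To compare levels between genes, counts were divided by the length of the exons in the deposited table and given as RPKM, CPM per kilobase. The lengths are those of all annotated exons merged, which are at least as long as any single transcript. The excess can differ between genes, and the 1643 bases of SAT2 equal its whole span from start to end. Levels and ranks of different genes therefore depend on the annotation. OAZ1 had the highest level in both groups, at 185 ± 4.59 RPKM (SD, n = 2) in control cells and 189 ± 1.02 RPKM (SD, n = 2) in Erastin-treated cells. In control cells SMS followed at 142 ± 0.356 RPKM (SD, n = 2), then SRM at 85.2 ± 8.39 RPKM (SD, n = 2) and SAT1 at 40.4 ± 2.16 RPKM (SD, n = 2). SAT1 was the breakdown gene with the highest level. ODC1, AZIN1, SAT2 and AMD1 lay between 22.1 and 27.4 RPKM in the control libraries, and of these neighbours SAT2 and AMD1 overlapped. OAZ2 had 16.6 ± 1.66 RPKM (SD, n = 2) and SMOX 7.81 ± 0.0528 RPKM (SD, n = 2). SMOX had the lowest level in both groups. In Erastin-treated cells SAT1 reached 89.9 ± 0.840 RPKM (SD, n = 2), rank 3 in place of rank 4, and it overlapped SMS at 92.1 ± 5.30 RPKM (SD, n = 2). No other neighbours in the Erastin libraries overlapped. As 51.4% of the 31-base words of SMS recur elsewhere in the genome, its level and its rank in both groups are uncertain. For AMD1 and OAZ2 this share was 21.5% and 14.2%, so their levels and ranks are uncertain too. Without division by length, SAT1 had rank 7 in control cells and rank 2 in Erastin-treated cells.

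Ratios of RPKM within a library do not depend on the scaling of that library. Their size does depend on the gene lengths used. The ratio of SAT1 to SAT2 was 1.70 and 1.76 in control cells and 4.75 and 4.77 under Erastin, a change of 2.75-fold. The ratio of SAT1 to SMOX was 5.00 and 5.34 in control cells and 18.8 and 18.5 in Erastin-treated cells, 3.60-fold higher. SAT1 gave 56.5% of the summed RPKM of the 3 breakdown genes in control cells and 79.1% in Erastin-treated cells. SAT2 is among the 3, although its main substrate is not the polyamines. Among the breakdown genes SAT1 thus held most of the RNA in both groups, and a larger part after Erastin. The ratio of SAT1 to ODC1, the 2 members that rose, was 1.42 and 1.55 in control cells and 2.02 and 2.19 after Erastin. The ratio of SMS to ODC1, the last and the first enzyme of synthesis, was 5.18 and 5.25 in control cells and 2.14 and 2.17 after Erastin. SMS and SRM are the aminopropyl transferases that follow ODC1. The ratio of SMS to SRM was 1.56 and 1.79 in control cells and 1.201 and 1.153 after Erastin. The next ratios compare the antizymes and the antizyme inhibitor with each other and with their target ODC1. The ratio of OAZ1 to OAZ2 was 10.2 and 12.2 in control cells and 20.8 and 20.3 after Erastin. The ratio of ODC1 to OAZ1 was 0.151 and 0.143 in control cells and 0.236 and 0.216 after Erastin. The ratio of ODC1 to AZIN1 was 1.08 and 1.01 in control cells and 1.87 and 1.75 after Erastin. Each of these antizyme ratios was higher under Erastin. Summed RPKM of the 3 breakdown genes over that of the 4 synthesis genes was 0.246 and 0.271 in control cells and 0.475 and 0.501 after Erastin. In each of these 9 ratios the groups did not overlap, and the exact permutation test of 2 against 2 libraries gave a two-sided p of 0.333 for each, the smallest it can give, which the Benjamini-Hochberg adjustment over the 9 leaves at 0.333. The sums count RNA and not enzyme activity, and SAT1 gave most of the breakdown sum. The uncertain level of SMS enters its ratios, that of OAZ2 its ratio with OAZ1, and those of SMS and AMD1 the synthesis sum.

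**Figure D3:**
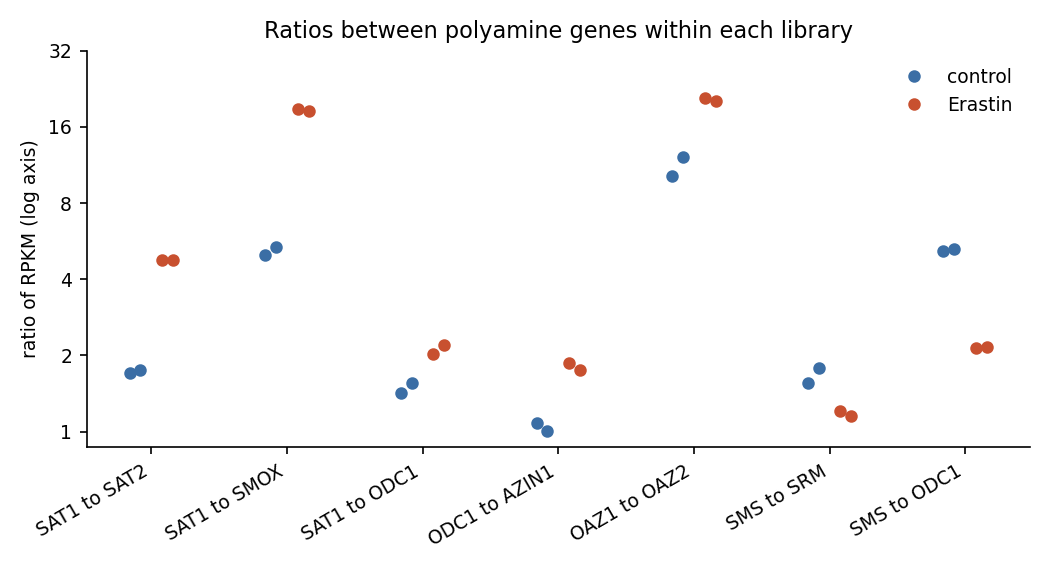
Ratios of RPKM between pairs of polyamine genes within each library (log axis), with 2 points per group. In the Erastin libraries the ratio of SAT1 to SAT2 lies at 4.75 and 4.77, against 1.70 and 1.76 in the controls, and the ratio of SMS to ODC1 lies at 2.14 and 2.17, against 5.18 and 5.25.

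The genes whose profile over the 4 libraries was most like that of SAT1 were sought among 9507 other genes that averaged 10 CPM or more, by the distance of log2 CPM after subtraction of each gene's mean. The 5 nearest were RCAN1, C1S, ZFYVE1, UNKL and PFKFB2, at distances from 0.0160 to 0.0626 on the log2 scale. RCAN1, an inhibitor of calcineurin, had 1571 and 1695 reads without Erastin, against 3558 and 3689 with it. C1S, a protease of complement, had 2903 and 3269 reads without Erastin, against 6773 and 6852 with it. The log2 fold changes of the 5 genes lay between 1.14 and 1.18, as the choice by likeness requires, and 4 libraries separate profiles only coarsely.

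Beyond the members, 39 genes around polyamine metabolism were listed by their known roles, and 28 of them passed the filter on low counts. Of these, OAZ3 was called upregulated, and ARG2, ASS1 and PAOX were called downregulated. Another 6 genes were higher and 8 lower with an adjusted p under 0.05 below the threshold on the fold change, and 10 did not pass the test. Of all tested genes, 6.24% were called upregulated and 9.34% downregulated, and 47.0% had an adjusted p under 0.05, against 18 of these 28. The median log2 fold change of the 28 genes was −0.18.

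**Figure D4:**
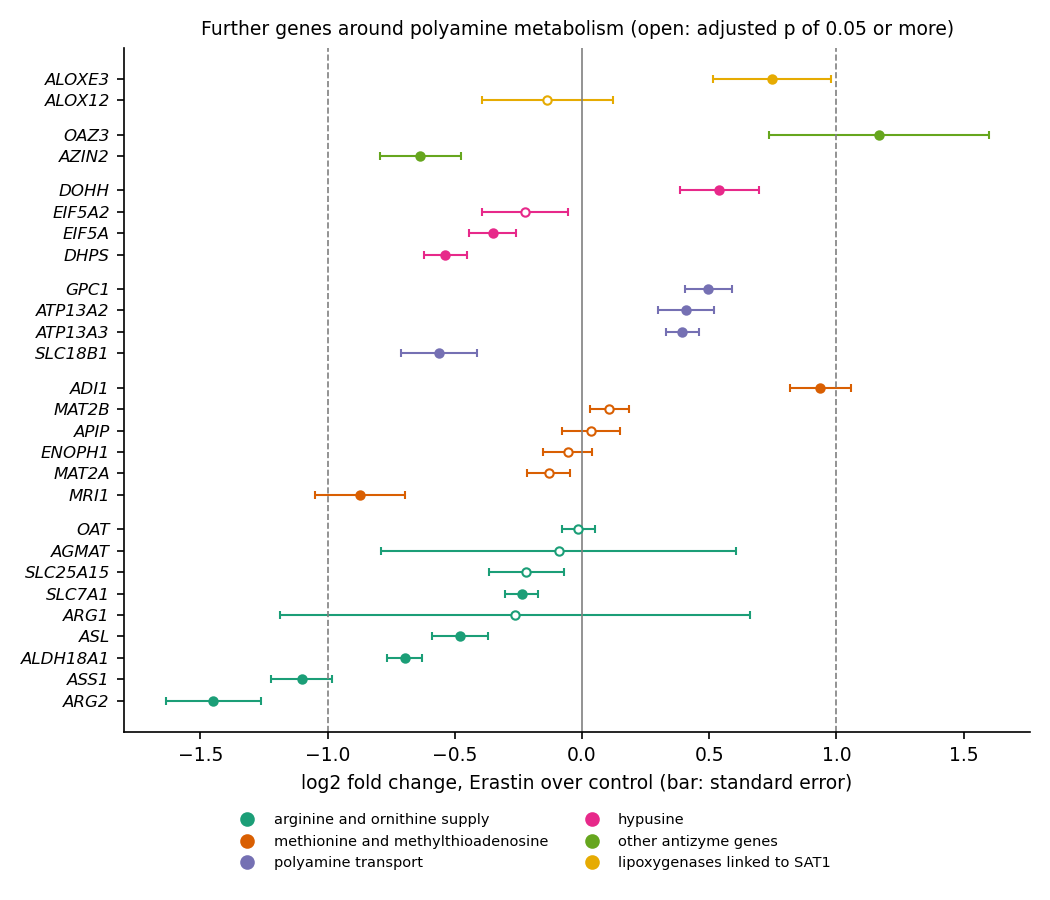
Log2 fold changes with standard errors of 27 tested genes around polyamine metabolism, in groups by role, with dashed lines at −1 and 1. PAOX, with 0 counts in the Erastin libraries, is not drawn. ARG2 lies at −1.45 and ASS1 at −1.10, whereas ATP13A2, ATP13A3 and GPC1 lie between 0.39 and 0.50.

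Of 10 genes that supply arginine and ornithine, 9 were tested and 5 were lower with an adjusted p under 0.05, where 23.7% of all tested genes were. ARG2, the mitochondrial arginase that makes ornithine, had 369 and 498 reads without Erastin, against 165 and 150 with it. Its log2 fold change was −1.45 (adjusted p = 5.66e-05 from edgeR, standard error 0.187). VTI1B, on the opposite strand, shares 37.4% of the exon bases of ARG2, and reads on both genes were not counted. ASS1, which makes argininosuccinate on the way to arginine, fell to 12.7 ± 0.943 CPM (SD, n = 2), compared to 27.2 ± 0.717 CPM (SD, n = 2) in the controls, which was a log2 difference of −1.10 (adjusted p = 1.40e-05 from edgeR). ALDH18A1, ASL and SLC7A1 fell by 0.70, 0.48 and 0.24 on the log2 scale. Without Erastin replicate 1 or Erastin replicate 2, edgeR's adjusted p for SLC7A1 was 0.125 and 0.0530. OAT, which converts ornithine to a precursor of proline, had a change in log2 of −0.01 (adjusted p = 0.885 from edgeR).

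Of 8 genes for S-adenosylmethionine and the salvage of methylthioadenosine, the by-product of spermidine and spermine synthesis, 6 were tested. MTAP, which starts the salvage, had 0 counts in all 4 libraries over 14617 exon bases, and so had each annotated gene that overlaps it. A count of 0 allows up to 3 independent counts, for counting error only. Why these counts are 0, and whether the salvage runs in these cells, was not tested. Later in the salvage, MRI1 fell by 0.87 on the log2 scale (adjusted p = 0.00158 from edgeR) and ADI1 rose by 0.94 (adjusted p = 5.28e-05 from edgeR). MAT2A, which makes S-adenosylmethionine, had 6519 and 7974 reads without Erastin, against 6332 and 6828 with it, so the groups overlapped. Its adjusted p from edgeR was 0.229, and without control replicate 1 it was 0.00140 at a log2 difference of −0.26.

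Of 7 transport genes, 4 were tested and each passed the test, 3 higher and 1 lower, where 23.2% of all tested genes were higher and 23.7% lower. ATP13A3, a polyamine pump whose loss impairs uptake, had 13561 and 14565 reads without Erastin, against 18144 and 18632 with it, a log2 difference of 0.39 (adjusted p = 3.12e-04 from edgeR, standard error 0.0636). ATP13A2, which exports polyamines from lysosomes, rose by 0.41 and GPC1, a heparan sulfate proteoglycan, by 0.50 on the log2 scale. SLC18B1, a vesicular polyamine transporter, fell by 0.56. ATP13A2 stood at 0.62 without control replicate 1 and at 0.21 without control replicate 2. Without Erastin replicate 1, ATP13A2 had an adjusted p of 0.0686 in edgeR, and without Erastin replicate 2, SLC18B1 had 0.0669.

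Spermidine is also used to make hypusine on the translation factor EIF5A. DHPS, the first of the 2 enzymes, had 2092 and 1948 reads without Erastin, against 1318 and 1455 with it, and fell by 0.54 on the log2 scale (adjusted p = 2.36e-04 from edgeR, standard error 0.0833). DOHH, the other enzyme, rose by 0.54 (adjusted p = 0.0133 from edgeR), with 752 and 613 reads without Erastin, against 1116 and 854 with it. Without Erastin replicate 1 the value of DOHH was 0.29 and edgeR's adjusted p was 0.190. EIF5A fell by 0.35 on the log2 scale (adjusted p = 0.00833 from edgeR). Its value was −0.18 without control replicate 1 and −0.51 without control replicate 2. GPS2 shares 8.56% of the exon bases of EIF5A and WDR83 3.86% of those of DHPS, both on the opposite strand.

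PAOX, the oxidase that acts on the acetylated polyamines made by SAT1, had 16 and 17 reads without Erastin and none with it, in either library. With 3 counts over the group in place of none, it would be 10.9-fold lower in Erastin-treated cells. The control counts carry error too and both mates of a pair were counted, so this is not a firm lower bound. The fall had an adjusted p of 0.00297 from edgeR, at a level near the limit of detection. OAZ3, an antizyme known from the testis, had 27 and 19 reads without Erastin, against 56 and 47 with it, a log2 difference of 1.17 (adjusted p = 0.0429 from edgeR). DESeq2 gave an adjusted p of 0.135, and omission of control replicate 2, Erastin replicate 1 or Erastin replicate 2 gave adjusted p-values of 0.188, 0.180 and 0.0549 from edgeR. OAZ3 also overlaps 5 annotated genes, so its few counts are uncertain. AZIN2, a relative of AZIN1, fell by 0.63 on the log2 scale.

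Among 6 lipoxygenases, ALOX15, the one tied to SAT1 in ferroptosis, had 0 reads without Erastin in both libraries, against 6 and 0 with it. ALOX5 had 0 counts in each library, and ALOX12B and ALOX15B had at most 7. ALOX12 had 92 to 114 counts per library and did not pass the test. ALOXE3 rose by 0.75 on the log2 scale, from 140 and 124 counts to 174 and 269 (adjusted p = 0.0199 from edgeR). Without Erastin replicate 2 the rise of ALOXE3 was 0.44 and edgeR's adjusted p was 0.224.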

How the data were processed

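RNA-seq was performed by the authors in 2 control and 2 Erastin-treated (10 μM, 72 h) libraries of U87MG cells. Per the file headers, featureCounts 2.0.3 made the deposited counts from Ensembl 90 gene models (GRCh38), ignoring strand and counting both mates of a pair, although htseq-count is named in the methods. The submitters' processing notes list HISAT2 2.1.0 and featureCounts 2.0.4. The authors deposited raw counts of reads per gene without normalization. The deposited values were checked for the decimals of estimated counts, and 0 values were not whole. Of 58302 genes, 57532 were joined to a symbol by identifier.

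The analysis used edgeR 4.0.16 (R 4.3.3). A minimum count of 10 in filterByExpr left 16751 genes, TMM factors were 0.971 to 1.02, and Erastin was tested against control by the two-sided quasi-likelihood test over these genes. The biological coefficient of variation was 10.3%. For ratios the exact permutation p is at least 0.333 with 2 libraries per group. Each standard error was the size of the log2 change over the root of F. Intervals and floors cover counting error only, since PCR reads without molecular identifiers are not independent molecules. The members, lists and tests were chosen with earlier results of these data known. Named genes were the members, called genes of the lists and the 5 nearest to SAT1. ATP13A2, ATP13A3, EIF5A, DHPS, MTAP, PAOX and ALOX15 were named for their role. Some of the genes overlapping these were named too, and others were not. Other genes named among the lists were chosen after their values were seen. Recurring 31-base words were counted over the primary chromosomes of hg38. Promoter sequences are from RefSeq (GRCh38.p14). Alternatives were DESeq2 1.42.0, RLE, library totals, no filter, 10 counts in every library, a replicate block, glmTreat, protein-coding genes, pairs of reads (counts divided by 2) and each library left out. The methods were tested on simulated data. ChIP-seq and HiChIP data were not analysed here.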

Additional observations from a re-analysis of the deposited data

How the results depend on the processing

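The 10 members were recomputed under each alternative, and none changed direction. The replicate numbers pair the libraries in number only (correlation of the deviations of same-numbered libraries 0.0203), and with the replicate block 1039 genes were upregulated and 1568 downregulated, without a changed call for a member. glmTreat, which tests against the threshold of 1, called 377 and 748 genes in place of 1046 and 1564. By its construction fewer changes pass, and none of the 7 members that changed passed. Only SAT1, at a log2 fold change of 1.15, lay beyond the threshold. The others lay under 1 in size and could not pass. They stood at 0.65 for ODC1, −0.62 for SMS, −0.69 for SMOX, −0.85 for OAZ2, −0.31 for SAT2 and −0.21 for AMD1. With library totals AMD1 was at −0.16 and no longer passed, and the cause was not tested. DESeq2 called 0 further genes upregulated in place of 1. When any 1 library was omitted, the value for SAT2 lay between −0.34 and −0.28, of AMD1 between −0.27 and −0.15, of SRM between −0.23 and −0.022 and of AZIN1 between −0.18 and −0.12, and the further genes called upregulated numbered 0 to 1. Such fits have 1 library in an arm, which is assumed to vary like the other group. By CPM without length, SAT1 had rank 7 in control and rank 2 in Erastin-treated cells. Genes with few counts, such as PAOX and OAZ3, are limited by depth.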
